A study of Mus musculus with 40 samples.

Results

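Smooth muscle contractile genes were followed across 25 mouse lung samples. The 9 genes were chosen by name as the standard markers of differentiated smooth muscle, and they are 9 of the 37310 genes in the table. They are Acta2 (smooth muscle alpha-actin), Actg2 (smooth muscle gamma-actin), Myh11 (smooth muscle myosin heavy chain), Tagln (transgelin), Cnn1 (calponin), Smtn (smoothelin), Lmod1 (leiomodin), Des (desmin) and Myocd (myocardin). All 9 were found, and 8 passed the filter for testing. Myocd did not pass and is described by its levels.

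The samples came from female A/J and SWR/J mice (strain SWJ in the sample labels), about 8 weeks old at entry, from a model in which squamous lesions of the airway are induced by N-nitrosotris-(2-chloroethyl)urea (NTCU), a carcinogen painted on the skin. Normal samples (n = 7) came from mice given the acetone vehicle, with 0 µmol NTCU. Mild dysplasia (n = 5) came from SWR/J mice that received 15 µmol in total. High-grade samples (n = 13) joined moderate to severe dysplasia (n = 9, with 14 µmol in A/J and 25 or 30 µmol in SWR/J), severe dysplasia (n = 2, SWR/J, 50 µmol), and carcinoma in situ and SCC tumor (1 sample each, A/J, 20 µmol). Tissue was taken by laser capture microdissection (LCM, n = 13) or as a whole lung section (n = 12), with 17 SWR/J and 8 A/J samples. Mild dysplasia occurred in SWR/J only, so grade, dose and strain were not crossed. The labels do not tie samples to animals, so some may share a mouse, and p-values measure the spread between samples. The sample labelled mild dysplasia replicate 5 was described as normal in its free text, and normal replicate 10 as mild dysplasia. The 25 samples are those labelled as having passed quality control, and 15 others were left out.

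In a smooth muscle cell, calcium activates myosin light chain kinase, the myosin motor then pulls on actin filaments, and calponin, leiomodin and smoothelin act on or bind those filaments. The serum response factor binds CArG boxes in the promoters of these genes, and myocardin is its smooth muscle coactivator. In the lung, smooth muscle surrounds the airways and the walls of vessels, so a block of tissue can hold very different amounts of it.

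Depth was between 2667387 and 16534728 expected counts per sample. Median transcript integrity (TIN, a measure of RNA quality) ranged from 21.7 to 75.1. Normal replicate 8 (whole lung, SWR/J) had the lowest level of Acta2, Actg2, Myh11, Cnn1, Smtn, Lmod1 and Des, and severe dysplasia replicate 2 (LCM, SWR/J) had the lowest TIN. All listed markers of endothelium, alveolar epithelium and airway epithelium had counts in every sample of both types.

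The promoters are shown because serum response factor and TEAD proteins act on short motifs in promoters of this class, and the genes moved together. RefSeq promoter sequences (GRCm38.p6, the 250 bases before the start) were matched for 5 of the 9 genes: Acta2, Cnn1, Des, Lmod1 and Smtn. Actg2, Myh11, Myocd and Tagln had no matched sequence. Both strands were searched for the CArG box and for the MCAT motif of TEAD proteins, CATTCC. Capitals mark MCAT motifs, and in Acta2 also CArG boxes with 1 base other than A or T in the core. These did not overlap each other.
Acta2 promoter (chr19:34255374-34255623, minus strand): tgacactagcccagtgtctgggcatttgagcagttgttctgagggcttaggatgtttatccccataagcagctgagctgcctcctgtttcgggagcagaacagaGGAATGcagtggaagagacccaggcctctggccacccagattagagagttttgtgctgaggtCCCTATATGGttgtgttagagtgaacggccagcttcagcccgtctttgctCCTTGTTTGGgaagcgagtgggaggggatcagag
Lmod1 promoter (chr1:135324563-135324812, plus strand): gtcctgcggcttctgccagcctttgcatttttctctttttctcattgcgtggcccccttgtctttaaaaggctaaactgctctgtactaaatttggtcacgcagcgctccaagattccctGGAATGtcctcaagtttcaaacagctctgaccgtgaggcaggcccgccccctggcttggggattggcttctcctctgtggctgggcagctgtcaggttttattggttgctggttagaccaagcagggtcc
Smtn promoter (chr11:3539293-3539542, minus strand): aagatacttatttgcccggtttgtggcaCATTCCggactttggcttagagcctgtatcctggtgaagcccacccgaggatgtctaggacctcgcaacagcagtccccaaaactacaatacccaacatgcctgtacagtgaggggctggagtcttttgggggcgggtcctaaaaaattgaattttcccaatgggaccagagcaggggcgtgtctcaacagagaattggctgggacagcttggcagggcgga
Acta2 held its CArG-like motifs 84 and 34 bases before the start and an MCAT motif 146 bases before it. Lmod1 held an MCAT motif at 130 bases and Smtn at 222 bases. No exact CArG box was in any of the 5 windows, and Cnn1 and Des held none of these motifs. Among 32851 promoters of this length, 1.47% held an exact CArG box, 7.24% one with 1 core base off, and 12.6% an MCAT motif. A motif is a match of letters and not a measured binding site.

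The question first addressed was how the genes rank against each other. Levels are given per length, as log2 of CPM (counts scaled to library size, plus 0.1) per kilobase of exon. Over the 25 samples the order was Tagln (7.49 ± 1.07, SD), Acta2 (7.20 ± 1.31), Des (5.44 ± 1.07), Cnn1 (5.21 ± 1.58), Actg2 (4.93 ± 1.55), Myh11 (4.15 ± 1.22), Smtn (2.46 ± 0.69), Lmod1 (1.63 ± 1.28) and Myocd (-3.61 ± 1.68). Several neighbours could not be separated. Tagln was above Acta2 in 17 of 25 samples, Des above Cnn1 in 11, and Cnn1 above Actg2 in 17. The wide steps held in nearly every sample, with Acta2 above Des in 24 of 25, Myh11 above Smtn in 25 and Lmod1 above Myocd in 25. In LCM samples alone Des fell behind Cnn1 and Actg2 in the order.

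**Figure D1:**
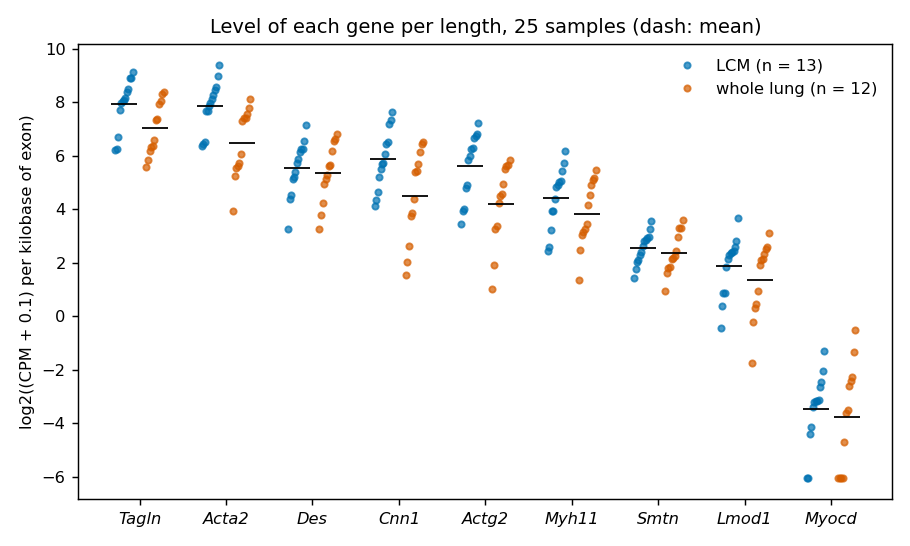
Level of each gene per kilobase of exon (vertical axis, log2 scale), with 1 point per sample in LCM (n = 13) and whole lung (n = 12) and a dash for the mean. Tagln and Acta2 lead in both sample types, and Myocd lies far below the other 8 genes.

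The same gene varied widely between samples. On the CPM scale Acta2 ranged from 26.8 to 1206, a 45.0-fold span, and Actg2 from 3.05 to 231, a 75.8-fold span. The span was 67.9-fold for Cnn1, 47.1-fold for Lmod1, 28.2-fold for Myh11, 14.8-fold for Des and 11.9-fold for Tagln. Smtn had the narrowest span, 6.48-fold, from 8.23 to 53.3 CPM. Within a sample type the spans were smaller but still large, for example 8.26-fold in LCM and 18.7-fold in whole lung for Acta2.

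These differences were shared across the genes. Over the 28 pairs of the 8 genes other than Myocd, the median Pearson r of log2 CPM was 0.81 (0.52 to 0.93, n = 25 samples). It was 0.84 within LCM (n = 13) and 0.85 within whole lung (n = 12). Over all pairs of the 15630 tested genes the median was 0.00 in all samples, 0.01 in LCM and 0.00 in whole lung. The samples of a pair share library, depth and tissue block, so r is given as a description. Cnn1 and Tagln were the closest pair (0.93), and Actg2 and Smtn the least close (0.52). Myocd, with 6 of 25 samples at 0, correlated most with Smtn (0.62) and least with Des (0.16).

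The samples high in the genes came from several grades. Ordered by the mean log2 CPM of the 8 genes, LCM samples ran from 4.996 in normal replicate 3 to 8.02 in mild dysplasia replicate 2. Whole lung samples ran from 3.56 in normal replicate 8 to 7.24 in moderate to severe dysplasia replicate 11. Low and high samples were found in normal, mild and high-grade groups alike in LCM.

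**Figure D2:**
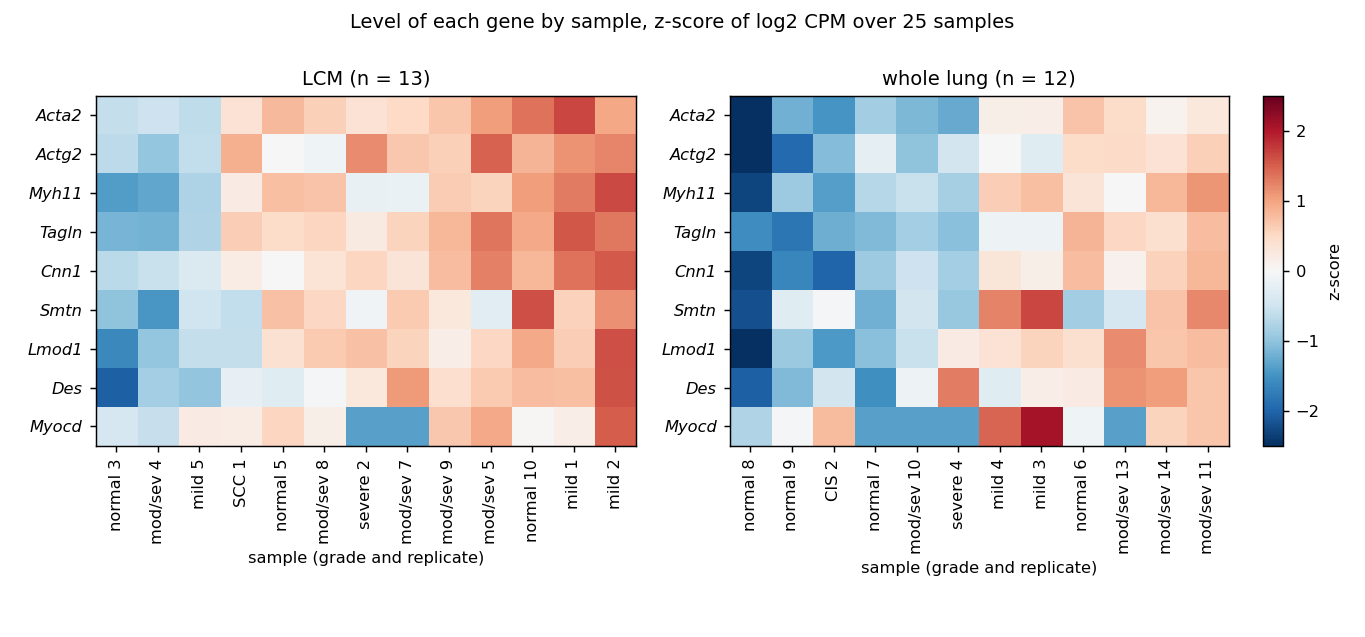
Log2 CPM of each gene as a z-score over the 25 samples (colour), with samples of each type ordered from low to high mean level. Columns turn from blue to red for 8 genes together, while Myocd, and Des and Smtn in some whole lung samples, follow less closely.

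The 10 other genes whose pattern was most like these genes were ranked by the lower of their Pearson r within LCM and within whole lung to the mean z-score of the genes. Myl9, the regulatory light chain of smooth muscle myosin, came first (0.96). Kcnmb1, the beta subunit of the calcium-activated potassium channel of smooth muscle, followed (0.935). Next were Mrvi1 (0.89), a target of cGMP kinase at the calcium store, Synpo2 (0.85), an actin-bundling protein of muscle, and Flna (0.85), an actin crosslinker. Jph2 (0.84) ties the calcium store to the cell membrane, Mylk (0.84) is the kinase that activates myosin, and Chrm2 (0.83) is a muscarinic acetylcholine receptor. Sh3bgr (0.79) and Ptgis (0.79), the prostacyclin synthase, completed the 10. The pathway lists held 7 of these (Myl9, Kcnmb1, Synpo2, Flna, Jph2, Mylk and Chrm2). The lists were chosen with earlier results of these data known, so this overlap and the list medians below are descriptions only. Of 13689 genes whose mean reached 1 log2 CPM in each type, 31 had a value above 0.7, against a median of -0.13. Among lists of the pathway, the median was 0.54 for channels and calcium handling (9 genes), 0.53 for focal adhesion and dense body genes (18) and 0.48 for the filament and light chain genes (13). It was 0.21 for regulators (11), 0.16 for receptors (10) and -0.01 for related genes of the same families (17). The family genes ran from -0.46 to 0.68 (Actc1). Among the non-muscle actins and myosins, Actb was -0.36, Actg1 -0.14, Myh9 -0.01, Myh10 0.48 and Myh14 0.38.

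The next question was whether the sample type set the level. In CPM, Acta2 in LCM ranged from 146 to 1206 with a median of 449 (n = 13). In whole lung it ranged from 26.8 to 500.3 with a median of 200.1 (n = 12). The groups overlapped, but 6 of 12 whole lung samples lay below every LCM sample. Actg2 ranged from 16.9 to 231 CPM in LCM and from 3.05 to 90.4 in whole lung, and 4 whole lung samples lay below all LCM samples.

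With grade, strain and TIN in the model, whole lung was lower than LCM by estimate in 8 of 8 genes, with a median log2 fold change of -0.49 against 0.03 over all tested genes. None of the 8 passed an adjusted p of 0.05 in edgeR's quasi-likelihood test, where 14.6% of the 15630 tested genes did. At an unadjusted p under 0.05 there were 2 of the 8, against 4753 of all tested genes. Acta2 gave -1.10 (SE 0.46, edgeR adjusted p = 0.110) and Actg2 -1.22 (SE 0.51, edgeR adjusted p = 0.110). DESeq2 called these 2 of the 8 genes, with adjusted p = 0.0333 and 0.0348, and it called 3347 of all 15630 tested genes. Over all alternatives the adjusted p ran from 0.0333 to 0.595 for Acta2 and from 0.0348 to 0.511 for Actg2. Cnn1 gave -0.91 (SE 0.56) and Tagln -0.76 (SE 0.41). Smtn gave -0.02 with an interval from -0.51 to 0.46, and Des -0.06 with an interval from -0.79 to 0.68.

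The direction for Myh11, Des, Lmod1 and Smtn depended on the samples, since it turned in SWR/J samples alone. Without normal replicate 6, the whole lung sample highest in these genes among normal tissue, Acta2 and Actg2 were called (adjusted p = 0.0398 and 0.0486). In a bulk sample, fewer smooth muscle cells and less RNA per cell cannot be told apart.

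Of the 84 tested genes of the pathway lists, 13 (15.5%) were called in whole lung against LCM, a share near the 14.6% of all tested genes. The estimate was positive in 8 of 13 filament genes and 10 of 18 focal adhesion genes. Regulators rose in 3 of 11 tested genes, namely Mkl1 (0.78, SE 0.21), a myocardin-related coactivator, Srf (0.47, SE 0.12) and Elk1 (0.47, SE 0.14). Both subunits of the nitric oxide receptor, Gucy1a3 (1.89, SE 0.46) and Gucy1b3 (1.38, SE 0.40), were the 2 of 12 receptor genes that rose. The calcium entry channels Trpc6 (1.70) and Cacna1c (1.47) were the 2 of 11 channel genes that rose. Rock2 (0.56) and Tln1 (0.75) were the only genes called of 13 filament and 18 focal adhesion genes. Of 19 family members, Tmod1 (0.95), Cnn2 (0.88), Myh9 (0.85) and Actb (0.56) rose, and no gene called in these lists fell.

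Markers of some other cell types moved with the sample type, where 14.6% of all tested genes were called. Of 8 fibroblast markers 3 were positive and 1 was called, Pdgfra (0.79). None of 8 cardiac and none of 9 skeletal muscle markers was called. Endothelial markers rose in 5 of 6, with Cldn5 at 2.70 and Cdh5 at 2.29. Their summed level was 77.9 to 1125 CPM in LCM and 158 to 1310 CPM in whole lung. Pericyte and mural cell markers rose in 4 of 9 (Cox4i2, Higd1b, Notch3 and Pdgfrb), with sums of 82.8 to 442 and 104 to 562 CPM. Alveolar markers rose in 3 of 6, with Sftpc at 3.44, and sums of 419 to 10152 and 131 to 31443 CPM. Cartilage markers fell in 2 of 5 tested, Lect1 (-3.07) and Comp (-2.90), with sums of 1.49 to 546 and 0.743 to 183 CPM, and 1 of 8 airway epithelial markers fell, Epcam (-1.22). The part of these cells in the levels of the contractile genes was not tested.

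The next question was whether the genes differed by lesion grade, first between mild dysplasia and normal. In CPM, Smtn in normal whole lung was 8.23, 13.4, 15.7 and 20.7, and in mild dysplasia 43.6 and 53.3. Both mild whole lung samples lay above all 4 normal samples, but the share of all tested genes with such a separation was not counted. Median TIN was 63.4 and 75.1 in these 2 mild samples and 28.9 to 60.7 in the 4 normal ones. In LCM the values were 14.7, 34.1 and 51.8 in normal and 18.9, 31.7 and 41.6 in mild dysplasia, which overlapped.

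Myh11 in normal whole lung was 16.9, 54.9, 64.1 and 153.6 CPM, against 198 and 223 in mild dysplasia. In LCM it was 35.9, 222 and 283 CPM in normal and 61.2, 352 and 476 in mild dysplasia. The mild samples were thus above all normal samples in whole lung, and in LCM mild replicates 1 and 2 were above all normal samples while replicate 5 was not. Myocd showed the same order in whole lung, with 0, 0.152, 0.448 and 0.491 CPM in normal and 2.51 and 4.54 CPM in mild dysplasia. These values rest on few counts and were not tested. For Myh11 and Myocd too, the share of all tested genes with such a separation was not counted.

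Acta2 in whole lung was 26.8, 88.4, 119 and 500.3 CPM in normal and 301 and 303 in mild dysplasia. In LCM it was 153, 546 and 897 CPM in normal and 146, 633 and 1206 in mild dysplasia. The groups overlapped in both sample types, as they did in Tagln, Cnn1, Lmod1, Des and Actg2.

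**Figure D3:**
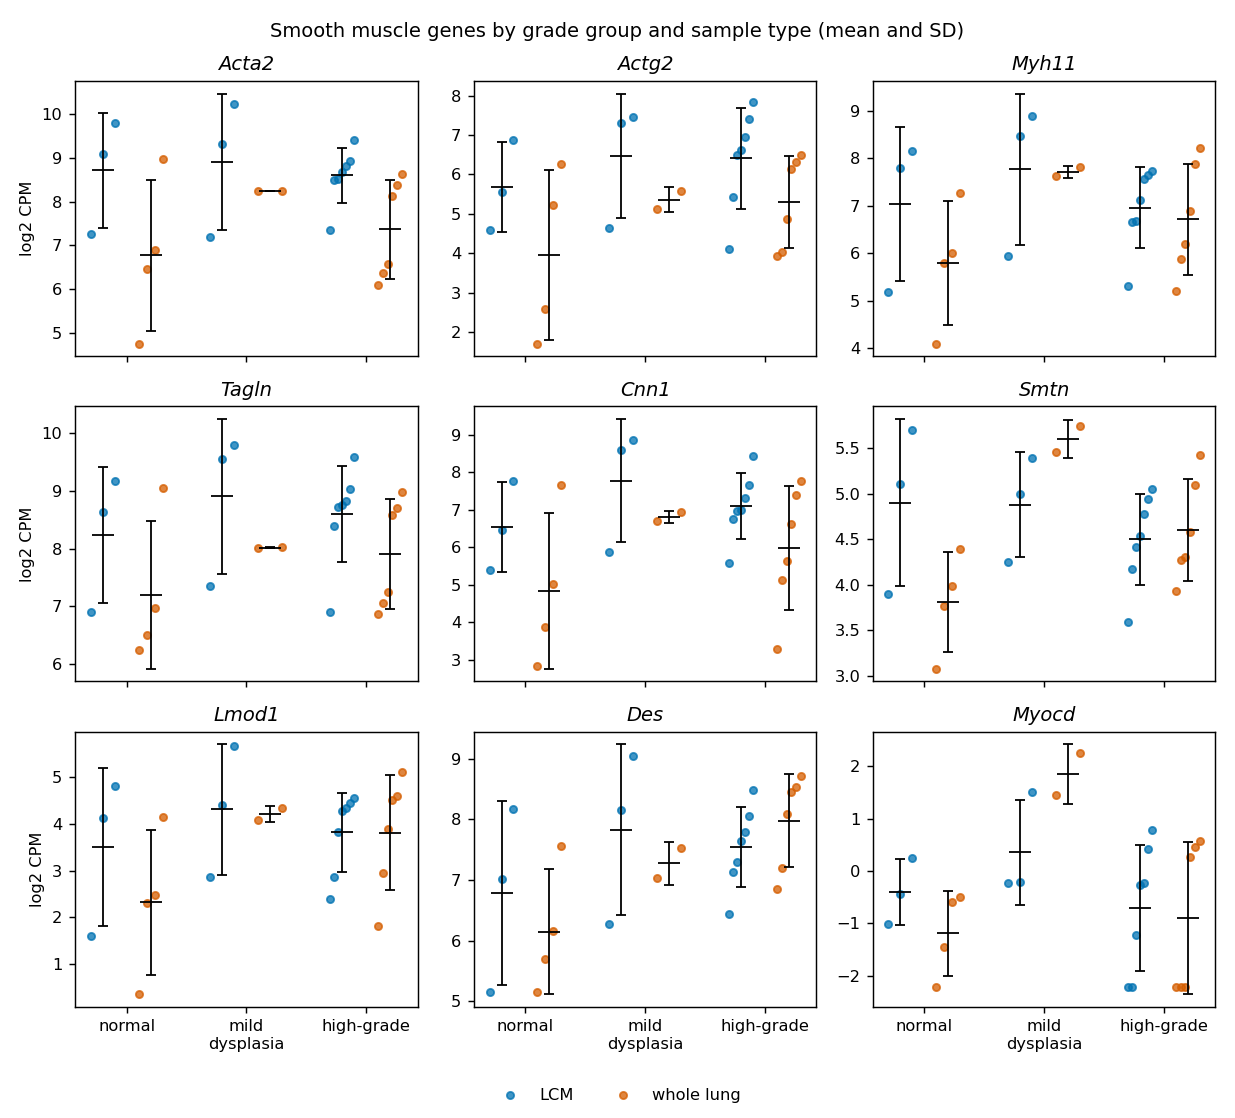
Log2 CPM of each gene (vertical axis) by grade group, with 1 point per sample in LCM and whole lung, and black bars for the mean and SD. In whole lung the 2 mild samples of Myh11, Smtn and Myocd lie above the 4 normal samples, and in the other genes the groups overlap. The share of all tested genes with such a separation was not counted. Samples with a Myocd count of 0 lie on the lowest line of that panel.

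In the fit, mild dysplasia was higher than normal by estimate in 8 of 8 genes, with log2 fold changes from 0.65 (Tagln) to 1.61 (Myh11) and a median of 1.11 against -0.03 over all tested genes. None of the 8 was called at an adjusted p of 0.05, whereas 12.6% of the 15630 tested genes (1967) were. That number was 1010 without normal replicate 8 and severe dysplasia replicate 2, 991 without the samples of another described histology and 1 with all 40 samples. It was 0 without strain and sample type as covariates, in LCM alone and in whole lung alone. At an unadjusted p under 0.05 there were 3 of the 8, against 5128 of all tested genes. DESeq2 called 1 of the 8 and 3651 of all tested genes. Smtn was nearest, at 1.09 (SE 0.40, edgeR adjusted p = 0.0701), and DESeq2 called it (adjusted p = 0.0345). Myh11 (SE 0.68) had an edgeR adjusted p of 0.109. Des gave 1.29 (SE 0.59, edgeR adjusted p = 0.130) and Lmod1 1.41 (SE 0.73, edgeR adjusted p = 0.182). Acta2 gave 0.70 with an approximate 95% interval from -0.65 to 2.06.

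Smtn passed the threshold in edgeR without TIN (adjusted p = 0.0478), in SWR/J samples alone (adjusted p = 0.0349) and without the samples whose descriptions give another histology (1.44, adjusted p = 0.0368). It also did without normal replicate 10 (adjusted p = 0.0325) or moderate to severe dysplasia replicate 11 (adjusted p = 0.0284). Over all alternatives its adjusted p ran from 0.0284 to 0.839. Among all tested genes, edgeR called 1997 of 15630 without TIN and 1854 of 15680 in SWR/J alone. Without the samples of another described histology it called 991 of 15593.

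Of the 84 tested genes of the pathway lists, 11 (13.1%) were called in mild dysplasia, a share near the 12.6% of all tested genes. Without normal replicate 8 and severe dysplasia replicate 2, 5 were called. Of 13 filament and light chain genes, Mylk (1.68, SE 0.56), Cald1 (1.49, SE 0.39), which binds actin and restrains myosin, and Rock2 (0.78, SE 0.22) rose. Of 18 focal adhesion and dense body genes, Nexn (2.05), Parva (1.63), Fblim1 (1.497) and Lpp (1.27) rose. Of 11 channel and calcium genes, Jph2 (1.78) and Atp2a2 (1.66), the calcium pump of the store, rose. Of 11 regulators, Tead1 (1.68, SE 0.43) and the coactivator Mkl2 (0.98, SE 0.25) rose. None of 12 receptor genes and none of 19 family members was called, and no gene called in these lists fell. With an unadjusted p under 0.05 there were 7 receptor genes and 5 family members, against 5128 of all 15630 tested genes.

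Markers of most other cell types were also higher by estimate in the same comparison. Skeletal muscle markers went the other way, with 1 of 9 positive (median -1.71) and none called. Fibroblast markers rose in 4 of 8, namely Col3a1 (1.86), Col1a2 (1.51), Pdgfra (1.39) and Postn (1.06), with sums of 447 to 1267 CPM in normal and 824 to 2887 CPM in mild dysplasia. Of 9 mural cell markers Mcam rose (2.19), with sums of 82.8 to 330.1 and 279 to 496 CPM. Cardiac muscle markers, called in 0 of 8 with 2 at an unadjusted p under 0.05, had sums of 138 to 502 and 171 to 2549 CPM. Epithelial markers were not called but were positive in 6 of 6 alveolar genes (median 2.11, 3 at an unadjusted p under 0.05) and 8 of 8 airway genes (median 1.45, 3 at an unadjusted p under 0.05). Alveolar sums were 131 to 17237 CPM in normal and 1707 to 31443 in mild dysplasia, and airway sums 683 to 189509 and 4829 to 66560 CPM. Endothelial markers were positive in 6 of 6 (median 0.87, 2 at an unadjusted p under 0.05), and none was called. The part of these cells in the result was not tested.

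**Figure D4:**
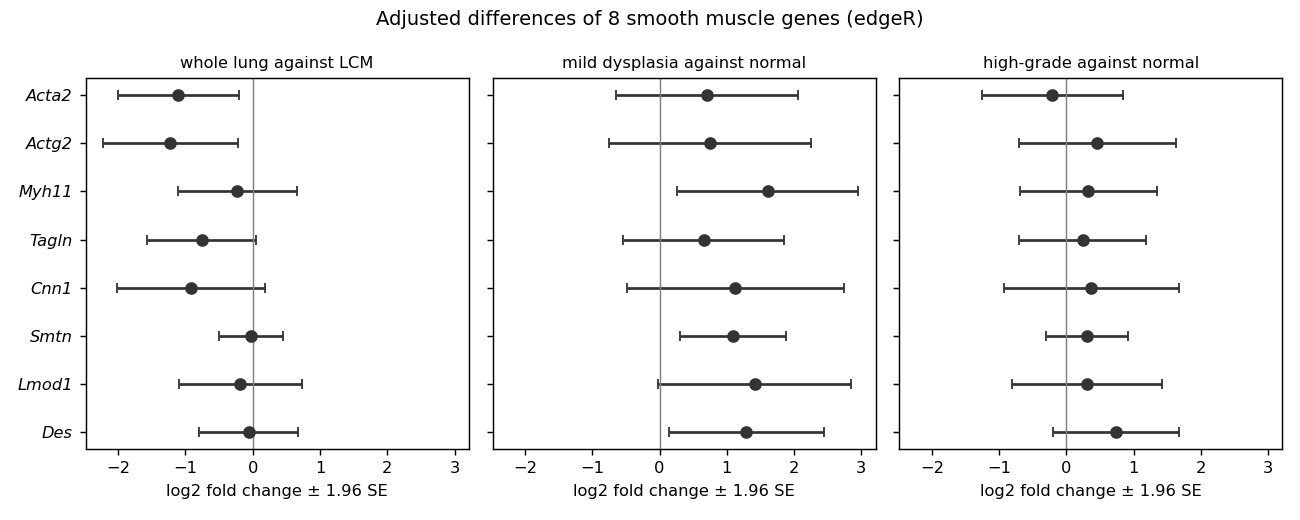
Log2 fold change of 8 genes from edgeR (horizontal axis), with bars of the approximate 95% interval, for whole lung against LCM and for mild dysplasia and high-grade against normal. All estimates lie below 0 for whole lung and above 0 for mild dysplasia, and those for high-grade lie between -0.21 and 0.73.

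Between high-grade and normal samples the estimates were smaller. They ran from -0.21 (Acta2) to 0.73 (Des), with 7 of 8 positive and a median of 0.32. None of the 8 passed the threshold or an unadjusted p of 0.05 in edgeR, which called 0.0192% of the tested genes. DESeq2 called none of the 8 and 91 of all 15630 tested genes. The intervals still allowed sizeable changes, from -1.26 to 0.84 for Acta2 and from -0.30 to 0.91 for Smtn. In LCM alone Myh11, Cnn1, Des, Lmod1 and Smtn gave negative estimates.

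Acta2 in high-grade LCM samples ranged from 164 to 684 CPM with a median of 409 (n = 7), within the range of normal LCM samples. In high-grade whole lung it ranged from 67.8 to 397 CPM with a median of 188 (n = 6), again within the normal range. Des, the intermediate filament protein of all muscle types, was 116 to 418 CPM in high-grade whole lung, with a median of 311, against 35.5, 51.9, 71.3 and 189 in normal whole lung. Of the 6 high-grade samples, 4 lay above every normal sample. The adjusted estimate for Des was 0.73 (SE 0.48, edgeR adjusted p = 0.647).

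Against mild dysplasia, high-grade samples were lower by estimate in 8 of 8 genes, by -0.29 (Actg2) to -1.28 (Myh11), with a median of -0.77. None was called by edgeR or had an unadjusted p under 0.05. Of all tested genes edgeR called 0.339% (53), against 2345 genes without TIN in the model. DESeq2 called none of the 8 and 1377 of all tested genes. By rank of grade the slopes ran from -0.22 to 0.14 per step, with 3 positive, none called where 0.384% of tested genes were, and none at an unadjusted p under 0.05. The high-grade difference was not shown to depend on sample type (0 of 8 genes called, 0% of tested genes) or on strain (0 of 8, 0% of tested genes). DESeq2 called none of the 8 for either term, and 2 of all tested genes for sample type and 5 for strain. In edgeR none of the 8 had an unadjusted p under 0.05 for sample type. Smtn alone of the 8 had an unadjusted p under 0.05 for the strain term (0.0206, edgeR adjusted p = 0.978), as had 668 of all tested genes.

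Between strains, A/J was higher than SWR/J by estimate in 8 of 8 genes, from 0.07 (Cnn1) to 0.89 (Myh11), with a median of 0.52. Over the alternatives that median ran from -0.62 to 1.93, so the direction was not stable. None was called by edgeR or reached an unadjusted p of 0.05. Of all tested genes edgeR called 1.02% (159), against 2553 genes without TIN in the model. DESeq2 called none of the 8 and 961 of all tested genes. The groups overlapped for every gene in both sample types. Acta2 in LCM was 365 to 897 CPM in 5 A/J samples and 146 to 1206 CPM in 8 SWR/J samples. In whole lung it was 67.8, 88.4 and 281 CPM in A/J and 26.8 to 500.3 CPM in 9 SWR/J samples, so the direction differed between sample types. Mean log2 CPM without covariates was higher in A/J for each of the 8 genes in LCM. In whole lung it was lower in A/J for each of them, from -0.12 (Des) to -1.18 (Cnn1), except Smtn (0.24). Of the 84 tested pathway genes none was called by edgeR between strains, for high-grade against normal or for high-grade against mild dysplasia. At an unadjusted p under 0.05 there were 20, 13 and 19 of the 84, against 2742, 1420 and 3538 of all 15630 tested genes. DESeq2 called 6, 0 and 7 of the 84, against 961, 91 and 1377 of all tested genes.

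Des departed from the other genes in some samples. Its log2 CPM minus the mean of the 7 others was 0.81 ± 0.43 (SD, n = 13) in LCM and 1.53 ± 0.84 (n = 12) in whole lung. The value was highest, 3.40, in severe dysplasia replicate 4 (whole lung, SWR/J), where Des was 418 CPM and Acta2 82.7 CPM. That library held 3356 CPM of Acta1, the skeletal muscle actin, and 2140 CPM of Ckm, the muscle creatine kinase.

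Moderate to severe replicates 7 (LCM) and 13 (whole lung) were also high in Acta1, at 3351 and 3771 CPM, and had Des at 356 and 372 CPM. In replicate 7 Des was 1.75 above the other genes, the highest value in LCM. Summed over 9 skeletal muscle markers, high-grade samples held 19.5 to 12104 CPM and normal samples 18.9 to 1684. Of these markers 5 had counts in every sample, while Myh2, Myh1, Myh4 and Atp2a1 were at 0 in 6, 5, 4 and 1 samples. In carcinoma in situ replicate 2 (whole lung, A/J), Des was also 2.32 above the other genes with 0.106 CPM of Acta1. Without the 3 libraries highest in these markers, the estimate for Des in high-grade against normal was 0.61 in place of 0.73.

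**Figure D5:**
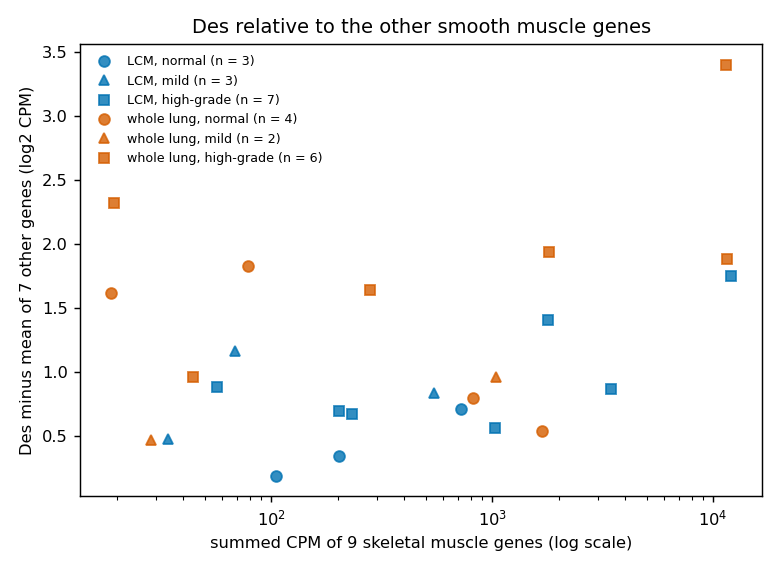
Log2 CPM of Des minus the mean of 7 other smooth muscle genes (vertical axis) against the summed CPM of 9 skeletal muscle genes (horizontal axis, log scale), with 1 point per sample. Severe dysplasia replicate 4 is highest at 3.40. Other samples with Des well above the rest lie at both low and high sums. Examples are carcinoma in situ replicate 2 (19.5 CPM) and moderate to severe dysplasia replicate 7 (12104 CPM).

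Gene position and copies bear on these values. In the annotation of the assembly the authors used (mm9), Acta2 lies on chr19:34315580-34329826 and Myh11 on chr16:14194620-14291501, both on the minus strand. Smtn lies on chr11:3417526-3440615, minus strand, and Des on chr1:75356904-75365154, plus strand. Of the 50-base words of its transcripts, Acta2 shared 0.404% with another protein-coding gene, Actg1, and Myh11 shared 0.392% with Myh9 or Myh10. The other tested genes shared none. No Acta2 expected count was whole as printed in the table in the 25 samples. The share of whole values was also low in Tagln and Lmod1 (24% each), Myh11 (28%), Des (32%) and Cnn1 (36%), most of which shared no word with another gene. Over all genes it was 88.8%, but that share covers all 40 libraries and includes genes with a count of 0, so it is not a like comparison. Smtn overlaps the opposite-strand Gm11946 (highest count 91.0), and Tagln overlaps Pcsk7 on the opposite strand over 65 bases, and the kit does not mark strand, so reads of such pairs cannot be told apart.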

How the data were processed

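RNA from 40 whole lung sections and LCM tissues was sequenced by the authors as TruSeq v2 libraries (50-nucleotide single-end reads). Adapters and poor bases were removed with Trimmomatic, STAR was run in 2-pass mode on mm9, and the expected count of each gene from RSEM was deposited without normalization. Groups came from the dysplasia grade label. The 25 passed samples were used. The other 15 are those the authors removed for a low share of uniquely aligned reads.

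Expected counts were rounded. The robust quasi-likelihood test of edgeR 4.0.16 (R 4.3.3, TMM) was run on 15630 genes, with TIN, strain and sample type as covariates. These genes passed the authors' rule (interquartile range of log2 CPM above 0, sum above 1), applied here with a prior count of 2. With a prior count of 0.25 the rule kept 14897 genes, the number the authors report for the mouse samples. Adjustment followed Benjamini and Hochberg over all tested genes (threshold 0.05). The 95% intervals are approximate, at 1.96 standard errors on each side. They are narrower than the quasi-likelihood test implies, so an interval can leave out 0 where the unadjusted p is above 0.05. A standard error is the fold change divided by the square root of F. DESeq2 1.42.0 was an alternative. Other alternatives were size factors, library size alone, no filter, the prior count, covariates left out, subsets of samples, all 40 samples, and leaving out each sample. The steps were tested on simulated data. Levels per length used the union of exons.

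The members and lists were chosen with earlier results of these data known. The text names all 9 members, up to 4 called genes per list and direction, and the 10 genes most like the members. Foxf1 (regulators) and Cnmd (cartilage) had no symbol in the table. The precision of a level is the SD between samples, which includes counting error.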

Additional observations from a re-analysis of the deposited data

Results flagged for a closer look

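No sample lay far from its grade group in any of the 27 sets of values tested, 1 for each of 9 genes in normal, mild dysplasia and moderate to severe dysplasia samples, where chance gives about 5%. Of the 15 libraries that the authors left out, 7 exceeded the highest normal sample in at least 1 gene, on log2 CPM over all 40 libraries and with at least 10 counts. Moderate to severe dysplasia replicate 1 (LCM, SWR/J) did so in 8 genes. It had 10.89 for Acta2 (highest normal sample 9.80), 8.74 for Myh11 (8.13), 9.37 for Cnn1 (7.80) and 10.44 for Tagln (9.19). It also had 8.92 for Des (8.16), 8.58 for Actg2 (6.87), 5.57 for Lmod1 (4.81) and 5.96 for Smtn (5.69). Replicate 2 of that grade had 10.52 for Acta2, from 45 counts. Mild dysplasia replicate 6 had 8.10 for Cnn1 and 5.72 for Lmod1, the latter from 13 counts. Mild dysplasia replicate 7 had 8.06 for Cnn1, 9.44 for Tagln and 7.76 for Actg2. Replicates 6 and 7 were labelled mild dysplasia but described as normal in their free text. Des was also above normal at 8.75 in severe dysplasia replicate 3, 8.58 in moderate to severe dysplasia replicate 12 and 9.35 in severe dysplasia replicate 5. These libraries entered only the alternative with all 40 samples.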

How the results depend on the processing

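No member was called in any alternative for high-grade against normal or mild dysplasia, strain, rank of grade or the interactions. For whole lung against LCM the count of members called was 0 by edgeR, 2 with DESeq2 and 1 with all 40 samples, and 0 to 2 when each sample was left out in turn. For mild dysplasia against normal it was 0, and 1 with DESeq2, without TIN, without the samples described with another histology, and in SWR/J alone, and 0 to 1 when each sample was left out. Pathway genes called numbered 13 by edgeR and 21 with DESeq2 for whole lung. For mild dysplasia they numbered 11, 29 with DESeq2 and 5 without normal replicate 8 and severe dysplasia replicate 2. DESeq2 called 7 for high-grade against mild dysplasia and 6 for strain.

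For whole lung against LCM the estimate changed sign for Smtn with library size alone (0.0105), without samples of another described histology (0.0171), without the 2 samples just named (0.0627), in SWR/J alone (0.15) and without the 3 libraries highest in skeletal muscle genes, chosen after seeing the data (0.11). It did so for Des without samples of another histology (0.0472), with all 40 samples (0.17) and in SWR/J alone (0.37), and in SWR/J alone for Myh11 (0.35) and Lmod1 (0.46). For high-grade against normal, Acta2 turned without samples of another histology (0.0547), with all 40 samples (0.24), in whole lung alone (0.17) and in SWR/J alone (0.0582). In LCM alone Myh11 (-0.35), Cnn1 (-0.0098), Des (-0.0334), Lmod1 (-0.54) and Smtn (-0.71) turned. With each sample left out, Des ran from -0.19 to 0.12, Lmod1 from -0.34 to 0.0239 and Smtn from -0.16 to 0.0874 for whole lung, and Acta2 from -0.43 to 0.40 and Myh11 from -0.0275 to 0.67 for high-grade. The cause was not tested. The direction for mild dysplasia held for all 8 genes in all alternatives run. Counts over all genes moved more: DESeq2 called 91 genes for high-grade against normal (edgeR 3), 1377 for high-grade against mild dysplasia (53), 961 for strain (159) and 3651 for mild dysplasia (1967). For whole lung against LCM it called 3347 genes (edgeR 2289). With all 40 samples edgeR called 1349 of 15270 tested genes in that comparison.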
